A study of Mus musculus with 9 samples.

Results

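The hearts of 5 wild-type (WT) mice were profiled here, which is 5 of the 9 samples of the series. The other 4 samples are hearts of mice homozygous for the staggerer allele of Rora (RORasg/sg), a gene for a nuclear receptor, and their values appear below only beside WT values, in the checks of labels and arrays and for a few genes, with no test between the groups. All 9 mice were males of the C57BL/6 strain, 3 to 4 months old, weaned at 3 weeks, kept on the NIH31 diet and given no treatment. Each sample was hybridised to 1 array, and the labels number the samples without saying more on how they were taken, so the spread given is that between these samples. The labels give the tissue as heart, with no chamber and no hour of collection, so atria, ventricles, great vessels and attached tissue cannot be separated. RNA was amplified from 70 ng of total RNA with the NuGEN Ovation Pico WTA system, and the cDNA was labelled with Cy3 and read on a 1-colour Agilent mouse expression array.

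A heart pumps without pause, so its muscle cells are packed with sarcomeres and with mitochondria. The sarcomere pulls myosin heads along actin when calcium binds troponin. Calcium is released from the sarcoplasmic reticulum through the ryanodine receptor and pumped back by SERCA. Most of the ATP comes from burning fatty acids in the mitochondria, with glucose, lactate and ketones as further fuels. Blood vessels, fibroblasts, pericytes and macrophages surround the muscle cells, and in bulk RNA fewer cells of a type and less RNA per cell cannot be told apart.

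Each value below is a level on a log2 scale, the signal of a probe divided by the 75th percentile of the signals on its array, so a level of 0 is that percentile and a level of 3 is 8-fold above it. A gene is represented by its brightest probe, its level is the median of the 5 arrays, and the value after ± is the SD over the 5 hearts (n = 5). The arrays held 41174 probes, and 28223 of them matched 19096 genes with a symbol. Levels ran from -7.94 to 8.17, with the median gene at -1.32 and the brightest 1% above 5.87. Negative control spots had medians of -7.63 to -7.92 over the 5 WT arrays.

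Brightness depends on the probe as well as on the RNA, so every order below is an order of brightness and not of RNA amounts. In the 5086 genes with 2 probes, the brighter probe exceeded the dimmer by a median of 2.03 log2 units, or 4.08-fold, and the 90th percentile of that gap was 5.14 units. The scanner's flag for signal well above background did not separate heart genes from others. It was set on 5 of 5 arrays for 16355 genes (85.6%), and for 65 of 76 genes typical of other tissues (85.5%). Only 692 genes had it on 0 of 5 arrays. Percentiles of brightness were therefore read beside those 76 genes, whose median was percentile 30.7, with the lowest 10% of them under percentile 8.29 and the highest 10% over 64.2.

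The labels were checked first. Rora, the mutated gene of the other group, read 3.31, 3.40, 3.32, 1.56 and 3.33 in WT 1 to 5 on its brightest probe, and 0.25, -3.08, -2.19 and -4.43 in RORasg/sg 1 to 4. All 5 WT hearts were above all 4 RORasg/sg hearts on that probe, which was chosen for its WT mean. A vinculin probe, given below, was also low in WT 4 and in RORasg/sg 2 to 4. The order on the Rora probe alone therefore cannot check the labels. The Y-linked Eif2s3y (3.86 ± 0.53), Ddx3y (1.39 ± 0.23), Kdm5d (0.57 ± 0.30) and Uty (0.44 ± 0.23) were well above background on 5 of 5 arrays. Xist, the RNA of the inactive X chromosome in females, read -2.72 ± 0.43, at percentile 33.8. The 14 markers of ventricular cardiomyocytes ran from percentile 92.2 upwards.

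WT 4 stood apart from the other WT hearts. Across all genes, Spearman's correlation was 0.974 to 0.986 among WT 1, 2, 3 and 5, and 0.90 to 0.913 between WT 4 and each of them (19096 genes, which are not independent replicates). The 75th percentile of the signal was 436 in WT 4 and 547 to 684 in the others. It was 264 to 391 in RORasg/sg 2 to 4 and 773 in RORasg/sg 1. The correlation of WT 4 with RORasg/sg 1 was 0.870, and that of the other WT hearts 0.958 to 0.977. With RORasg/sg 2, 3 and 4, WT 4 had 0.876, 0.865 and 0.828, and the other WT hearts had 0.853 to 0.868, 0.793 to 0.817 and 0.733 to 0.761. WT 1 and 2 shared a slide with RORasg/sg 1 and 2, WT 3 and 4 shared a slide with RORasg/sg 3 and 4, and WT 5 was on slide 3. The median SD of a gene was 0.51 over 5 hearts and 0.28 without WT 4. Without WT 4, 38 of the 40 brightest genes were shared and 45 of 49 gene lists moved by under 2 percentiles.

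The 40 brightest genes were led by enzymes and carriers of energy metabolism and by sarcomere proteins. Of the 40, 8 were on the respiratory chain lists (20.0%), 9 belonged to the other lists of energy metabolism (22.5%), 5 to the lists of contraction and calcium (12.5%) and 2 to that of myoglobin and antioxidants (5.00%), while 16 were on no list. The lists are not complete, and the 16 include Atp5mpl, a small subunit of ATP synthase (7.08 ± 0.34), and the ribosomal protein gene Rpl41 (6.996 ± 0.42). Mdh2, the mitochondrial malate dehydrogenase, had the highest level of all, and read 8.13, 8.17, 8.19, 8.91 and 8.16 in WT 1 to 5. WT 4 was brighter than the other hearts, which were close to each other. Aldoa, the muscle aldolase of glycolysis, read 7.76, 8.06, 8.09, 8.56 and 8.30. Slc25a4, the carrier that exchanges ATP for ADP across the inner mitochondrial membrane, read 7.94, 7.94, 8.75 and 8.15 in WT 1, 3, 4 and 5, and its spot on WT 2 was an outlier and left out. The oxygen store myoglobin (Mb) read 7.34, 7.50, 7.64, 7.94 and 7.66, lowest in WT 1 and highest in WT 4.

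WT 4 was the highest of the 5 hearts for 30 of the 40 brightest genes and the lowest for 3 of them, among which were Tpm1 (7.21 in WT 4, 7.63 to 7.98 in the others) and Ccng1, the p53 target cyclin G1 (6.33 against 7.10 to 7.23). The SDs of the 40 ran from 0.10 for the superoxide dismutase Sod1 (7.36) to 0.57 for Atp5e, a small subunit of ATP synthase (7.05). Besides the metabolic and sarcomere genes, the 40 held Lars2, the mitochondrial leucyl-tRNA synthetase (7.26 ± 0.20), Pacsin3, a membrane-bending adaptor of muscle (7.19 ± 0.19), Apoo, a subunit of the complex that shapes the mitochondrial cristae (7.18 ± 0.14), and Vdac1, the channel of the outer mitochondrial membrane (7.09 ± 0.19). Cavin1, which coats caveolae, read 6.94 ± 0.24. Of the 40 genes, 17 had more than 1 probe.

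**Figure D1:**
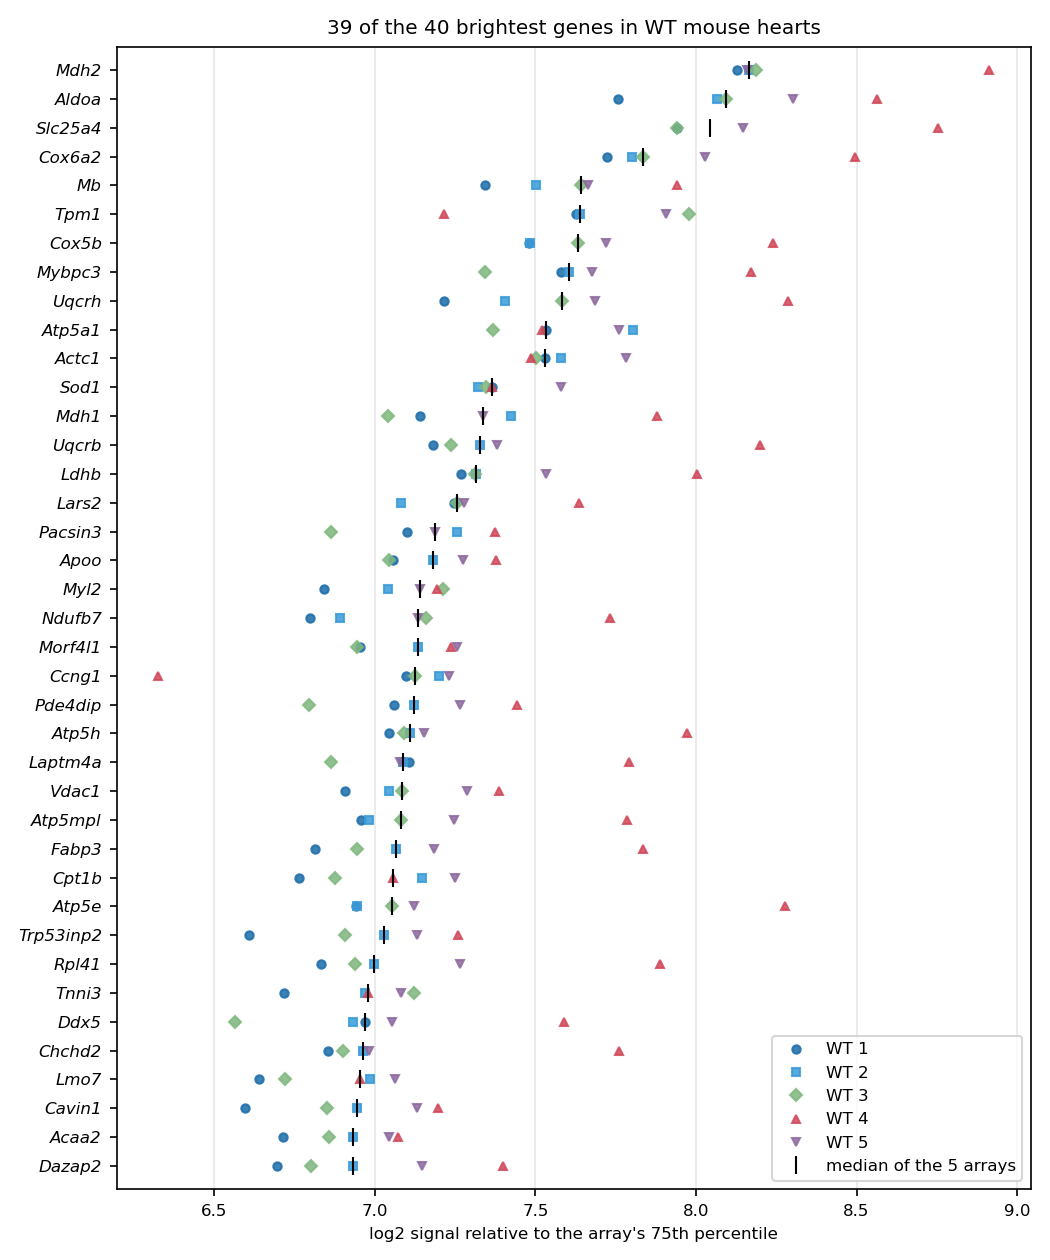
Levels of 39 of the 40 brightest genes in the 5 WT hearts, as log2 signal relative to the array's 75th percentile (horizontal axis), with 1 symbol per heart and a bar at the median. WT 4 (red triangles) is the rightmost symbol for 29 of the 39 genes, and Slc25a4 has 4 symbols because its WT 2 spot was left out.

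The genes of the contractile apparatus were bright in all 5 hearts. In the thick filament and M-band list, 10 of 12 genes were in the brightest 10% of all genes and the median was percentile 98.4. Mybpc3, the cardiac myosin-binding protein C that brakes cross-bridges, read 7.58, 7.60, 7.34, 8.17 and 7.68 in WT 1 to 5. Myl2, the ventricular regulatory light chain, read 6.84, 7.04, 7.21, 7.19 and 7.14, and its spread of 0.15 was below the median gene's. The essential light chain Myl3 (6.56 ± 0.15) and the M-band protein Myom2 (6.54 ± 0.15) were as steady. The giant spring protein titin (Ttn) read 4.83 ± 0.27.

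Myh6, the fast alpha myosin heavy chain of the adult mouse ventricle, read 5.89, 5.69, 6.03, 4.62 and 5.83 on its brighter probe, with WT 4 below the other 4 hearts. Its other probe read 4.93, 4.91, 4.92, 4.90 and 4.90, with WT 4 level with the rest. The slow beta chain Myh7 read 3.28, 3.40, 4.56, 4.27 and 4.21, so WT 1 and 2 were lower than the other 3 hearts, and its second probe gave the same order of those groups (3.27, 3.33, 4.36, 4.25 and 4.00).

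In the thin filament list, 6 of 11 genes were in the brightest 10% and the median was percentile 96.2. Actc1, the cardiac actin, read 7.53, 7.58, 7.50, 7.49 and 7.78, and Tnni3, the inhibitory troponin subunit of the adult heart, 6.72, 6.97, 7.12, 6.98 and 7.08. Troponin T (Tnnt2, 6.33 ± 0.39) and troponin C (Tnnc1, 5.69 ± 0.43) were lower by probe. Nebulin (Neb), the thin filament ruler of skeletal muscle, read -1.29 ± 0.68, while its cardiac relative Nebl read 2.88 ± 0.60. At the Z-disc, 9 of 14 genes were in the brightest 10%. The small heat shock protein Cryab (6.77 ± 0.23, over 4 hearts), telethonin (Tcap, 6.71 ± 0.31) and the muscle LIM protein Csrp3 (6.22 ± 0.23) led that list, and the skeletal muscle calsarcin Myoz1 (-3.10 ± 0.75) ended it, against 3.83 ± 0.40 for the cardiac Myoz2.

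Among the 15 genes of calcium cycling, 8 were in the brightest 10%. The calcium pump Atp2a2 read 6.56, 6.58, 6.33, 7.10 and 6.58, with WT 4 highest. Its regulator phospholamban (Pln) read 5.57, 5.50, 5.54, 5.74 and 5.65, and the luminal calcium-binding protein Hrc 5.97 ± 0.24. The ryanodine receptor Ryr2 (3.68 ± 0.38) and the sodium-calcium exchanger Slc8a1 (2.10 ± 0.75) were dimmer by probe. Fkbp1b, the ryanodine receptor's binding partner, was among the dim ones (-1.79 ± 0.63), and sarcolipin (Sln), the atrial pump regulator, read -4.27, -5.63, -5.39, -6.54 and -3.87 and passed the background flag on 4 of 5 arrays.

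Of the 15 genes of the intercalated disc and the conducting membrane, which joins and couples the muscle cells, 5 were in the brightest 10%. Among these were desmoplakin (Dsp, 5.60 ± 0.29) and connexin 43 (Gja1, 4.28 ± 0.34). Plakoglobin (Jup, -1.16 ± 0.18) and the potassium channel genes Kcnj2 (-1.81 ± 1.44) and Kcnip2 (-2.07 ± 0.33) were the dimmest.

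The respiratory chain was the brightest programme of all. In the list of complexes II to V, 35 of 38 genes were in the brightest 10%, 23 of them among the 200 brightest genes, and the median was percentile 99.3. In complex I, which takes electrons from NADH, 33 of 37 genes were in the brightest 10% and the median was percentile 98.6. Together the listed subunits made up 37 of the 200 brightest genes (18.5%). Cox6a2, the muscle form of a cytochrome c oxidase subunit, read 7.72, 7.80, 7.83, 8.49 and 8.03, and Cox5b 7.48, 7.48, 7.63, 8.24 and 7.72. Of complex III, the hinge protein Uqcrh read 7.58 ± 0.41, and of ATP synthase, the catalytic-core subunit Atp5a1 read 7.53 ± 0.18. Ndufb7, the brightest of complex I, read 7.13 ± 0.36.

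The nuclear-encoded subunits differed widely by probe all the same. Ndufs8, which carries iron-sulphur clusters in complex I, read 0.14, -0.43, 0.49, 0.08 and 0.12, at percentile 64.7, and Ndufa11 1.04 ± 0.56. In complexes II to V the dimmest were Cox7c (1.95 ± 1.15) and Atp5g1 (2.71 ± 0.57). Sdha, the flavoprotein of succinate dehydrogenase, read 4.03, 4.23, 4.44, 1.40 and 4.52, so WT 4 alone was low. In WT 4 the median gene of complex I was 0.83 above its own 5-heart median and that of complexes II to V 0.82 above, against 0.19 for all genes. In the other 4 hearts these medians lay between -0.17 and 0.12.

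The upstream citrate cycle had 13 of 17 genes in the brightest 10%. Besides Mdh2, citrate synthase (Cs) read 5.68, 5.85, 5.44, 7.13 and 5.76, again highest in WT 4. The mitochondrial NADP-dependent isocitrate dehydrogenase Idh2 was the dimmest of the list (1.77 ± 0.48).

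Most genes of fatty acid use were bright, from uptake to oxidation. In that list 19 of 26 were in the brightest 10%. Slc25a20 and Hadh were at percentiles 69.1 and 62.0, and 3 genes, Ucp3, Acot2 and Acads, were below the median gene. The carrier Fabp3, which moves fatty acids through the cytosol, read 6.81, 7.07, 6.94, 7.83 and 7.18. Cpt1b, the muscle carnitine palmitoyltransferase that commits fatty acids to the mitochondria, read 6.76, 7.15, 6.88, 7.06 and 7.25. Lpl, the lipase that frees fatty acids from lipoproteins, read 6.72, 6.78, 6.69, 6.67 and 6.81, an SD of 0.06 that is among the 10 lowest of the 2000 brightest genes. Its second probe, however, read 4.73, 4.91, 4.85, 3.10 and 4.92, with WT 4 low.

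Pdk4, which shuts pyruvate out of the citrate cycle when fat is burned, read 6.22, 6.83, 6.96, 5.81 and 7.25. WT 4 and WT 1 were the lowest. Short-chain acyl-CoA dehydrogenase (Acads) read -5.84, -5.94, -5.64, -3.56 and -6.45 and passed the background flag on 2 of 5 arrays, while medium-chain (Acadm, 5.53 ± 0.30), long-chain (Acadl, 5.57 ± 0.42) and very long-chain (Acadvl, 6.48 ± 0.26) dehydrogenases were in the brightest 10%. Acads has 1 probe on the array.

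Glycolysis was also bright, with 16 of 19 genes in the brightest 10%. Besides Aldoa the bright members were Ldhb, the heart lactate dehydrogenase subunit (7.32 ± 0.31), Eno3, the muscle enolase (6.21 ± 0.49), and Pgam2, the muscle phosphoglycerate mutase (6.21 ± 0.36). The insulin-responsive glucose transporter Slc2a4 read 5.97 ± 0.56. Of the shuttles for ketones, lactate and phosphocreatine, 7 of 10 were in the brightest 10%. Oxct1, which lets the heart burn ketones, read 6.49 ± 0.11, the lactate carrier Slc16a1 5.10 ± 0.09, and the mitochondrial creatine kinase Ckmt2 6.35, 6.39, 6.56, 6.00 and 6.65.

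Ckm, the cytosolic muscle creatine kinase, has 1 probe and read -3.37, -4.38, -3.60, -2.80 and -4.25, at percentile 23.5. The gene is known as an abundant transcript of striated muscle. Whether the probe binds the transcript in these hearts was not tested.

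Motifs of 3 known regulators were searched for in the windows from 250 bases before to 50 bases after the RefSeq transcription starts (build GRCm38.p6; the array design is annotated on mm9, so the windows were joined by gene symbol). MEF2 and SRF, which binds the CArG box, are known regulators of muscle genes, and NRF1 is one of nuclear-encoded mitochondrial genes. The 3 windows shown are those of the brightest gene in each set that holds the motif, cut to the 250 upstream bases, 5′ to 3′ on the strand of the gene, with the motif in capitals. The windows are chr2:114052876-114053125 on the minus strand for Actc1, chr2:91117894-91118143 on the plus strand for Mybpc3 and chr2:10080433-10080682 on the minus strand for Atp5c1, the gamma subunit of ATP synthase (5.77 ± 0.47).
Actc1: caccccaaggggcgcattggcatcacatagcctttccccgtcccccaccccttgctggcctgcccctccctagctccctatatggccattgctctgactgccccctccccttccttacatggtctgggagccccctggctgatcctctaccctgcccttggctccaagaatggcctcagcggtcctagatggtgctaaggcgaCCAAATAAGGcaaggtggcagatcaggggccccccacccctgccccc
Mybpc3: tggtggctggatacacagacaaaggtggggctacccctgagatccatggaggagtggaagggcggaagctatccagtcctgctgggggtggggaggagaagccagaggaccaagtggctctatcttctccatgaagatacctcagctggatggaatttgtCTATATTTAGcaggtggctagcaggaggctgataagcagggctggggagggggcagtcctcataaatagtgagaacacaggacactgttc
Atp5c1: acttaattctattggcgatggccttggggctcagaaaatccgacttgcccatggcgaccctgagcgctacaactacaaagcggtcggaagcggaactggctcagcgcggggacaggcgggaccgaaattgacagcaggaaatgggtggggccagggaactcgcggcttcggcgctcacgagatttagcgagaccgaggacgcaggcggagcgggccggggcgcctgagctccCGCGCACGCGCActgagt
The capitals mark a CArG box 47 to 38 bases before the start of Actc1, a MEF2 consensus 90 to 81 bases before that of Mybpc3, and an NRF1 consensus 18 to 7 bases before that of Atp5c1.

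Both strands were searched. The MEF2 consensus was in 7 of 41 windows of the 3 sarcomere lists (17.1%), against 2.43% of the 18773 windows of all measured genes and 3.19% of all 32851 windows of the table. The genes were Mybpc3, Ttn, Myoz2, Xirp2, Myom3 and Synpo2l. The CArG box was also in 7 of 41 (17.1%), against 1.41% and 1.63%, in Actc1, Myl3, Myom1, Ldb3, Nebl and Acta1. The MEF2 consensus can contain a TATAAA or overlap a CArG box, but 0 of the 41 windows held it together with either of them. The NRF1 consensus was in 6 of 67 windows of the respiratory chain (8.96%), against 1.99% and 1.27%, and in 0 of the 41 sarcomere windows.

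The ETS motif CCGGAAG was in 14 of 67 respiratory windows (20.9%), 13 of 38 ribosomal windows (34.2%), 3 of 25 windows of fatty acid genes (12%) and 0 of 41 sarcomere windows, against 12.6% of measured genes. The element of the oestrogen-related receptors, TNAAGGTCA, was in 3 of 67 respiratory windows (4.48%), in 0 of the 25 windows of the fatty acid list and in 0.98% of those of measured genes. CCAAT was in 39.0% of sarcomere, 40.3% of respiratory and 37.5% of measured windows. The median number of CpG per window was 5 in the sarcomere lists, 19 in the respiratory chain, 21 in the ribosome list and 15 over measured genes. These counts describe letters in a window, with no test, and the sets were known to be bright when they were chosen. Windows were found for 30 of 37 sarcomere genes, 62 of 75 respiratory genes and 32 of 44 ribosomal genes.

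Protection against oxygen was bright as well. Of 18 genes for myoglobin, iron and antioxidants, 9 were in the brightest 10%. The cytosolic superoxide dismutase Sod1 read 7.36, 7.32, 7.35, 7.36 and 7.58, and its mitochondrial counterpart Sod2 6.74 ± 0.21. The ferritin heavy chain Fth1 read 5.27, 5.70, 5.33, 7.06 and 5.64, highest in WT 4. The iron regulator hemojuvelin (Hjv) was the dimmest (-1.96 ± 1.75).

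The cytosolic ribosome list had 34 of 44 genes in the brightest 10%, led by Rps2 (6.71 ± 0.26) and Rps29 (6.67 ± 0.50). Equal amounts of ribosomal proteins are needed in the particle, yet the probes of the listed genes ran from 6.71 down to -2.0 ± 0.25 for Rpl4.

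Cardiac transcription factors were spread more widely, with 4 of 17 genes in the brightest 10% and a median at percentile 78.3. Of these 4, Tead1, the partner of the Hippo coactivators, read 5.34 ± 0.45, Srf 4.80 ± 0.21 and Ankrd1 4.09 ± 0.77. Gata6, also of the 4, read 3.30, 3.38, 3.30, 2.99 and 3.52. Nkx2-5, the homeobox factor of the heart field, read 3.11 ± 0.83 and was at percentile 88.8. Hand1, a factor of the embryonic left ventricle, read -7.04 and passed the background flag on 0 of 5 arrays. Of the metabolic nuclear receptors and coactivators, 4 of 16 were in the brightest 10%. They were Rxra, the shared dimer partner (4.29 ± 0.59), Ppargc1a, the PGC-1alpha coactivator of mitochondrial genes (3.99 ± 0.25), Esrrb (3.58 ± 0.21) and Rora.

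In the list of natriuretic and hypertrophy markers, which rise in overloaded hearts, Nppa read 2.74, 3.15, 3.78, 4.52 and 3.82 and Nppb 2.39 ± 0.34. The stretch-responsive Ankrd1 read 4.09 ± 0.77 and skeletal actin (Acta1) 1.19, 2.19, 2.83, 2.18 and 2.50. WT 1 was lowest for Nppa, Acta1 and Myh7, and the list's median deviation there was -0.33. Npr1, the receptor that makes cyclic GMP in response to these peptides, read -3.23 ± 0.31.

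Programmes that respond to the hour or to handling are given because the labels name no hour of collection. In the clock list, Dbp, an output factor of the clock, read 3.74, 3.96, 4.31, 4.25 and 4.39, Nr1d1 (REV-ERBalpha) 2.96 ± 0.54 and Arntl (BMAL1) -3.85 ± 0.35. Of the immediate early genes, Junb read 6.51 ± 0.12 and Jund 6.06 ± 0.39, while Fos read -2.99 ± 0.48 and Atf3 -3.66 ± 0.76. Their median was percentile 69.0, with 8 of 25 below the median gene. Of 16 interferon-stimulated genes 0 were in the brightest 10% (median percentile 54.8), and Rsad2 (3.08 ± 0.50) was the brightest.

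The cell cycle list had the lowest median of the 21 programmes, percentile 45.8, with 10 of 19 genes below the median gene. The replication genes Pcna (3.73 ± 0.27) and Mcm6 (3.49 ± 0.18) were in the brightest 10%. The mitotic kinase Cdk1 (-4.90 ± 0.26) and its cyclin Ccnb1 (-5.09 ± 1.61) passed the background flag on 4 and 3 of 5 arrays. In the extracellular matrix list, 5 of 22 were in the brightest 10%, which were decorin (Dcn, 4.42 ± 0.13), fibulin (Fbln1, 4.41 ± 0.23), Sparc (4.06 ± 0.48) and the fibrillar collagens Col3a1 (4.03 ± 0.24) and Col1a2 (3.88 ± 0.17). The elastin gene Eln was the dimmest, at -2.51 ± 0.39.

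**Figure D2:**
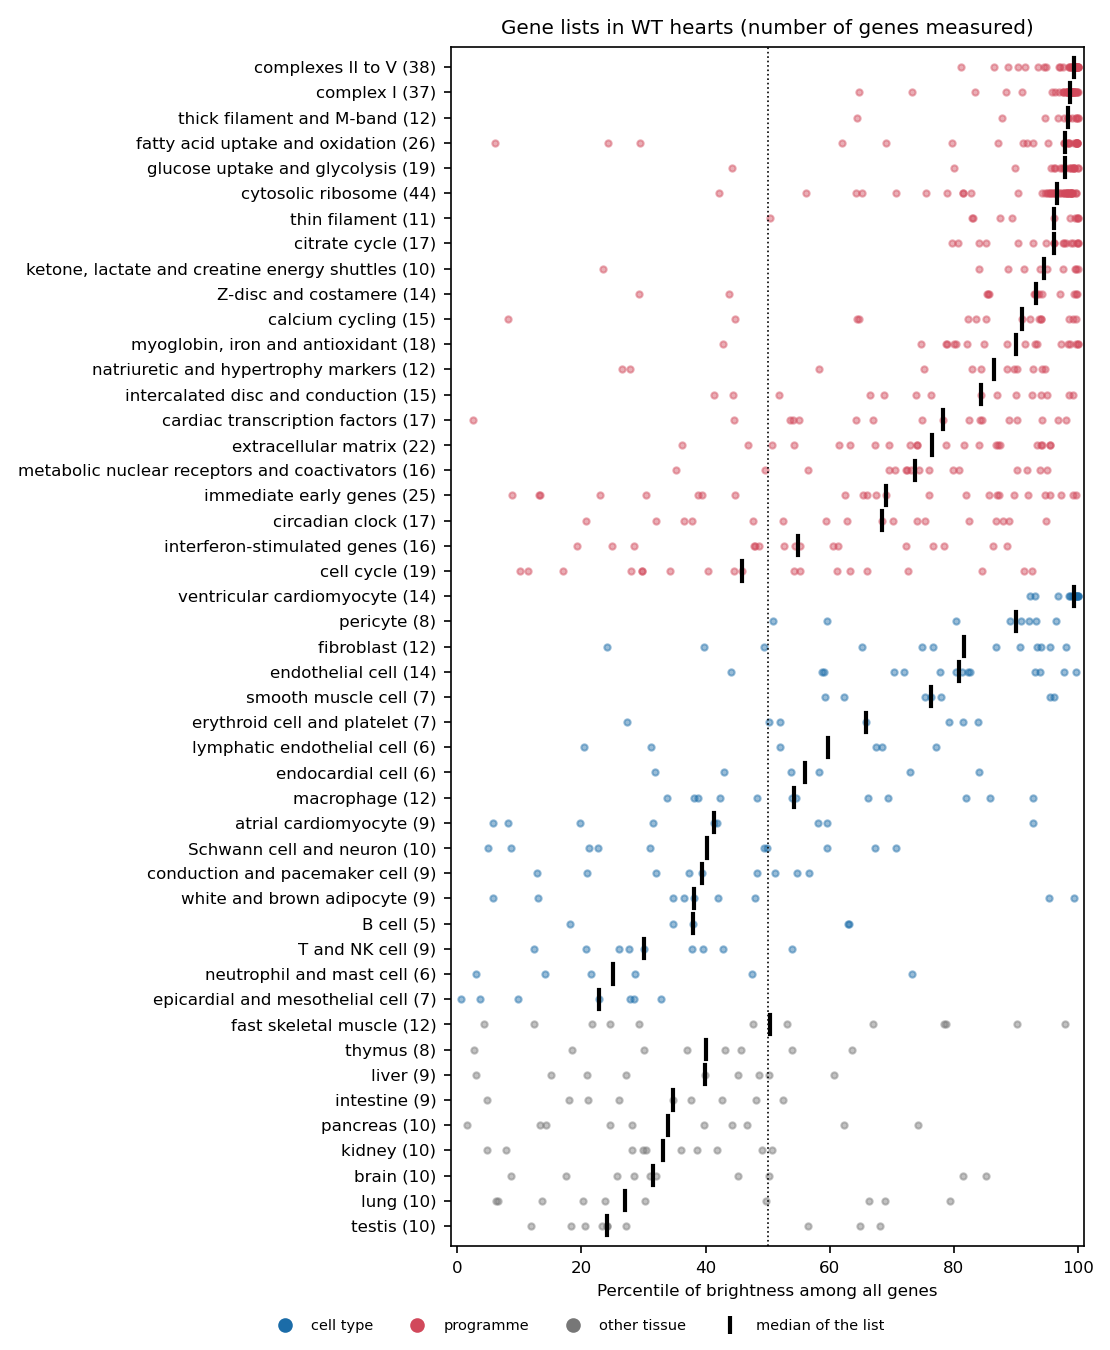
Percentile of brightness among all 19096 genes (horizontal axis) of every measured member of 21 programmes (red), 17 cell type lists (blue) and 9 lists of other tissues (grey), with a bar at each list's median and a dotted line at the median gene. The medians of complexes II to V and of ventricular cardiomyocytes lie above the 99th percentile, and those of 8 of the 9 other tissues between 24.2 and 40.1.

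Markers of the ventricular cardiomyocyte stood at the top of the cell type lists. All 14 were in the brightest 10% and their median was percentile 99.4. Pericytes, the contractile cells wrapped around capillaries, came next with a median at percentile 89.9. Of the 8 genes of that list 4 were in the brightest 10%. The markers Cspg4 (-1.24 ± 0.43) and Notch3 (-0.42 ± 0.71) were dim by probe, at percentiles 50.9 and 59.5. The potassium channel pair of the pericyte, Abcc9 (4.75 ± 0.25) and Kcnj8 (3.84 ± 0.13), is also a channel of heart muscle. Rgs5, a marker of pericytes, read 3.56, 3.66, 3.72, 0.67 and 3.81, so WT 4 was low, while Kcnj8 read 3.84 in WT 4 and 3.66 to 4.01 in the others.

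Fibroblast (percentile 81.7), endothelial (80.8) and smooth muscle (76.3) lists followed, each above percentile 64.2 that 90% of the genes of other tissues did not reach. Fibroblasts were led by gelsolin (Gsn, 5.32 ± 0.47), decorin and the fibrillar collagens. Decorin read 4.39, 4.42, 4.46, 4.29 and 4.64. The receptor Pdgfra read 1.22 ± 0.25, and the fibroblast transcription factor Tcf21 -3.55, -3.68, -3.49, 0.26 and -3.62, high in WT 4 alone. The microfibril gene Mfap5 went the other way, at -7.52 in WT 4 and -2.27 to -1.13 in the other hearts.

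Endothelial cells were led by Fabp4, the fatty acid carrier of capillaries and fat, which read 6.67, 6.63, 6.60, 7.77 and 6.80, and by the fatty acid receptor Cd36 (5.16 ± 0.27), which heart muscle shares. The water channel Aqp1 (4.00 ± 0.54) and the junction protein VE-cadherin (Cdh5, 3.83 ± 0.53) were also in the brightest 10%. Claudin 5 (Cldn5, -1.85 ± 0.46) and Pecam1 (-0.50 ± 0.73), textbook endothelial genes too, were dim by probe. Acta2 (4.65 ± 0.50) and Tagln (4.43 ± 0.75) led the smooth muscle list.

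Erythroid and platelet genes (percentile 65.8), lymphatic (59.7) and endocardial cells (56.0) and macrophages (54.2) had medians lower than those. Apart from the erythroid list, these medians lay within the span that held all but the highest 10% of single other-tissue genes. All of them were above the medians of the 9 other-tissue lists, which ran from 24.2 to 50.4. Of the macrophage markers, the complement gene C1qc read 3.67, 3.76, 3.62, 4.72 and 4.00 and the scavenger receptor Cd163 2.63 ± 0.74, but C1qa (-2.34 ± 0.40), C1qb (-1.48 ± 0.14) and Cd68 (-1.99 ± 0.92) were below the median gene. The C1q chains are parts of 1 protein.

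Lists with medians close to or below those of other tissues were atrial cardiomyocytes (percentile 41.4), Schwann cells and neurons (40.2), the conduction system (39.4), adipocytes (38.1), B cells (37.98), T and NK cells (30.1), neutrophils and mast cells (25.1) and epicardial or mesothelial cells (22.8). Of the atrial markers, Nppa was in the brightest 10%, the atrial light chains Myl7 (-2.90 ± 0.67) and Myl4 (-2.03 ± 0.60) were below the median gene, and Bmp10 read -3.94 ± 0.58. The pacemaker channel Hcn4 read -1.22 ± 0.49. The adipocyte list was split, since Cox8b (6.24 ± 0.57) and Cidea (4.41 ± 0.26), known from brown fat and here also in the heart, were in the brightest 10%, and adiponectin (Adipoq, -2.02 ± 0.76) and perilipin 1 (Plin1, -2.49 ± 0.62) below the median gene. All 7 epicardial markers were below the median gene, Wt1 at -3.23 ± 0.34.

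Of the 76 genes of 8 other tissues, 0 were in the brightest 10% and 59 were below the median gene. The brightest was synapsin 1 (Syn1, 2.51 ± 0.25). The list of fast skeletal muscle, a relative of the heart, had its median at percentile 50.4, and 2 of its 12 genes were in the brightest 10%. They were the pump Atp2a1 (5.27 ± 0.29) and the myosin Myh4 (3.32 ± 0.24). For each of them a second probe was far dimmer. That of Atp2a1 read -3.33, -3.37, -3.38, -5.19 and -4.15, and that of Myh4 0.54, -0.50, -1.01, -3.75 and -3.00. Parvalbumin (Pvalb, -4.77 ± 1.43) and Actn3 (-6.30 ± 0.76), which mark fast fibres, passed the background flag on 4 and 2 of 5 arrays.

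Paralogs were compared in 40 families, in which the form known from heart or, failing that, the best studied form was listed first. Of the 134 members 130 were measured. In 32 families the first member was brighter than every other member by the medians, and in 26 it was so in all hearts with values. In 8 families another member was brighter, in 5 of them in all hearts. The gap exceeded 90% of the gaps between 2 probes of 1 gene in 9 of the 32 families. The direction turned in 7 of the 40 families under at least 1 of 16 other ways of processing, mostly where another probe stood for a gene.

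The widest of these gaps was between the SERCA regulators, with phospholamban at 5.57 and sarcolipin at -5.39, a gap of 10.96 that 99.9% of the 2-probe gaps did not reach. The next was cytochrome c oxidase subunit 4, with Cox4i1 at 5.76, 6.04, 6.47, 5.16 and 6.36 and the lung-type Cox4i2 at -2.45, -2.92, -3.08, -1.38 and -3.58. Muscle enolase Eno3 (6.21) was above Eno1 (-1.83), a gap wider than 98.9% of those between 2 probes. Sln, Cox4i2 and Eno1 have 1 probe each, as Ckm does. Whether these dim probes bind their transcripts was not tested either.

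In the sarcomere the same held for myosin-binding protein C (Mybpc3 7.60, skeletal Mybpc2 1.62) and the 3 troponins. Troponin T had 6.33 for Tnnt2 and 0.69 for the slow skeletal Tnnt1, troponin C 5.69 for Tnnc1 and 0.35 for the fast Tnnc2, and troponin I 6.98 for Tnni3 and 1.65 for the fast Tnni2. The neonatal Tnni1 read -2.88 ± 0.55. Calsequestrin, the calcium buffer of the reticulum, had Casq2 at 2.27 and the skeletal Casq1 at -3.11. Acetyl-CoA carboxylase, whose product blocks Cpt1, had the mitochondrial Acacb at 2.91 and the fat-making Acaca at -2.50. Mybpc2, Tnnt1, Tnnc2, Tnni2 and Casq1 also have 1 probe each, so the same limit holds for them, while Acaca has 4.

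Other families had the heart form ahead in every heart by less than that yardstick. Cpt1b (7.06) was above the liver form Cpt1a (2.29 ± 1.45), Pfkm (5.79) above Pfkp (2.76), Slc2a4 (5.97) above Slc2a1 (3.24), and Slc25a4 (8.04) above Slc25a5 (5.14). The pair Cox6a2 (7.83) and Cox6a1 (5.24) kept its gap of 2.59 with an SD of 0.11, and Ppargc1a (3.99) its gap of 3.37 to Ppargc1b with an SD of 0.33. Ldhb was above Ldha by 1.10 ± 0.23.

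Several families did not show a single leading form. In the myosin heavy chains, the perinatal Myh8 read 5.68, 5.68, 5.67, 6.81 and 5.70 on its brighter probe, level with Myh6, and was the brighter one after quantile normalization. Its other probe read -6.38 to -7.80 and passed the background flag on 0 of 5 arrays. Of the essential light chains, Myl6 of non-muscle cells (6.19 ± 0.49) lay 0.36 below Myl3. Connexin 45 (Gjc1, 4.05) lay 0.23 below connexin 43. Ppara (0.96 ± 0.20) and Pparg (0.93 ± 0.56) had a gap of 0.03, and which of them was brighter changed between hearts and with the scaling.

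Among the 8 families with another member ahead, creatine kinase had the widest gap, for the dim Ckm probe described above. At -9.99 it was wider than 99.9% of the gaps between 2 probes of 1 gene. In the L-type calcium channel, the skeletal Cacna1s read 2.51, 2.65, 2.24, 3.61 and 2.74 and the cardiac Cacna1c 0.11 ± 0.13, but a second Cacna1s probe read -2.22 to -2.84. Gata6 (3.30) was above Gata4 (1.60, 1.21, 0.77, 2.60 and 1.21) in all 5 hearts, Esrrb (3.58) above Esrra (1.79 ± 0.30), and Actn4 of non-muscle cells (3.73 ± 0.64) above the Z-disc form Actn2 (2.49, 2.58, 2.96, 1.61 and 2.82). Hk2 (5.09) and Hk1 (4.95) were level. Rpl3l, the muscle-specific ribosomal protein, read 3.45, 3.49, 3.49, 3.84 and 3.75 and Rpl3 3.19, 3.36, 3.66, 2.33 and 3.34, with Rpl3l ahead in 4 of 5 hearts. The last was Ucp2 (0.36), above the brown fat Ucp1 (-2.64 ± 1.39) in 4 of 5 hearts, a direction that turned with the mean of all probes and with the dimmest probe. In WT 1, Ucp1 read -0.34 and Ucp2 -0.48.

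**Figure D3:**
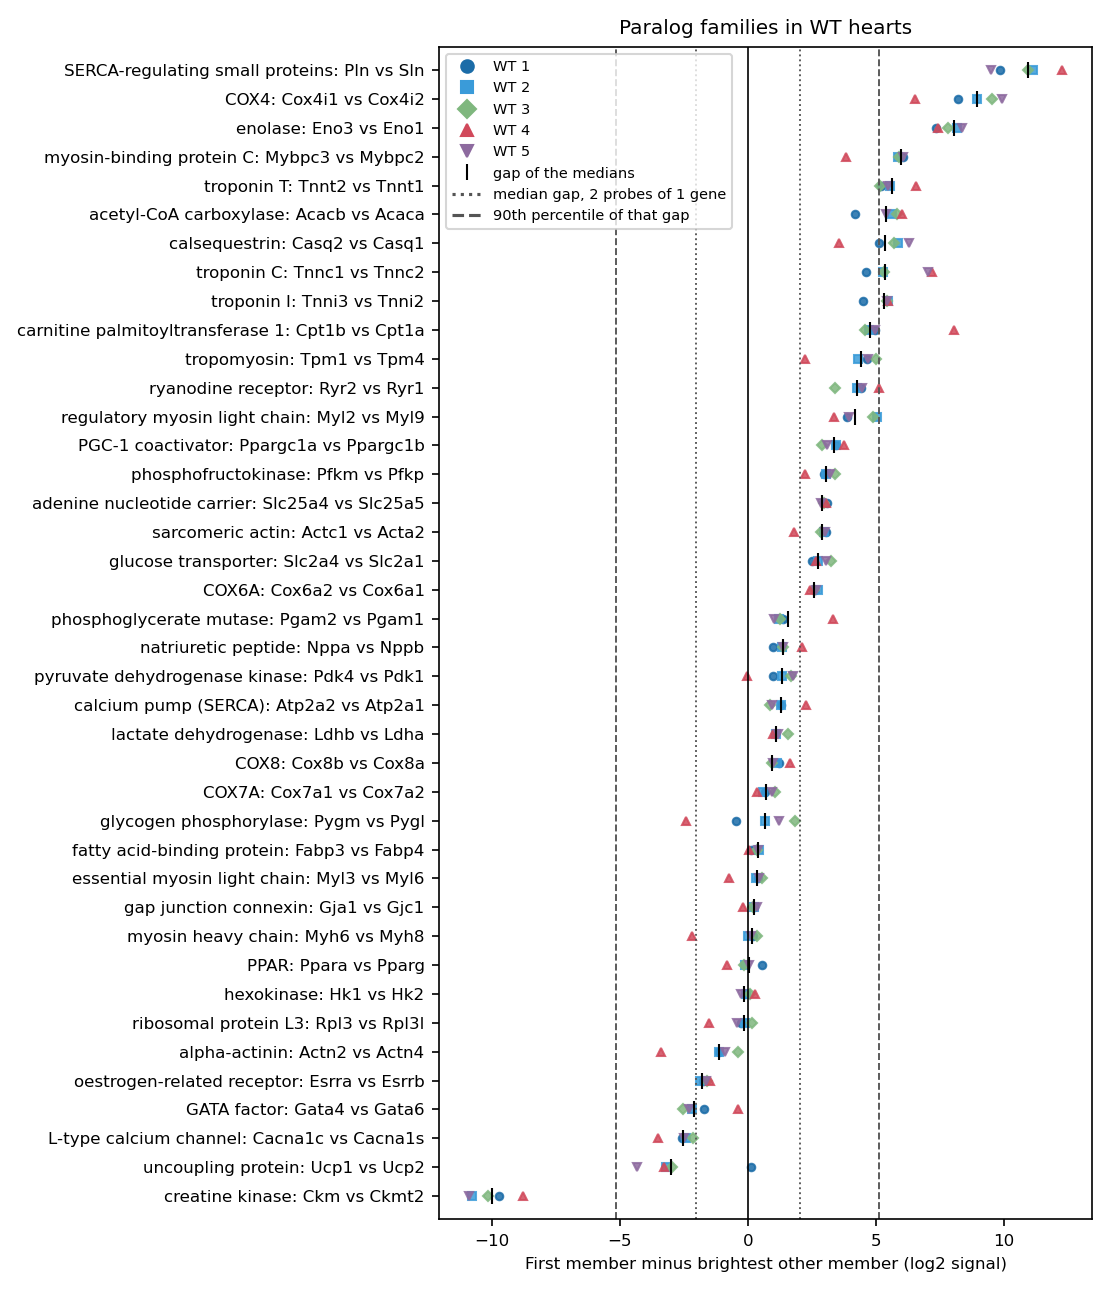
Level of the first listed member minus that of the brightest other member in 40 paralog families (horizontal axis, log2 units), with 1 symbol per WT heart and a bar at the gap of the medians. Dotted and dashed lines mark the median (2.03) and the 90th percentile (5.14) of the gap between 2 probes of 1 gene, and 9 families lie to the right of the dashed line.

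The spread between the 5 hearts was small for most bright genes. The median SD of the 200 brightest was 0.33. The 10 steadiest of the 2000 brightest genes were Gigyf1 (3.37 ± 0.02), Zfp960, Zfp930, Mtrf1, Lpl, Rhoa, Fyttd1, Otud7b, Emc3 and Hibadh, with SDs up to 0.07. Gigyf1, a regulator of translation, read 3.37, 3.32, 3.35, 3.37 and 3.38. The small GTPase Rhoa read 5.03, 5.07, 4.94, 4.93 and 5.05.

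The most variable genes fell into 2 patterns. In the first, a gene read alike in 4 hearts and far lower in WT 4. The acetyl-CoA synthetase Acss2 read 1.68, 2.29, 1.75, -5.02 and 1.93, and vinculin (Vcl), which anchors actin at the costamere, 2.34, 2.56, 2.57, -4.20 and 2.68. Plaa, a ubiquitin adaptor, read 2.14, 2.35, 2.79, -3.44 and 2.53, and Lyrm9 2.10, 2.50, 2.65, -3.49 and 2.67. The neuronal receptor gene Lingo1 was highest in WT 4, at 1.11, but the other hearts also differed, from -4.79 to -2.78.

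The same vinculin probe read 2.94 in RORasg/sg 1 and -0.65, -0.62 and -3.78 in RORasg/sg 2, 3 and 4. Other probes of these genes in WT 4 were nearer to the other hearts. A second Acss2 probe read -1.10 in WT 4 and -0.90 to -0.33 in the other WT hearts, and a second Vcl probe -0.94 against 0.33 to 1.18. Over the array, 10098 probes had a median above 0 over the other 4 hearts. Of these, 329 were over 8-fold lower in WT 4 (3.26%). By the same rule 0 were lower in WT 1, 2 and 3 and 12 in WT 5. Higher probes were counted at any brightness, dim ones included, so that count has another base. It was 401 over 8-fold higher in WT 4, against 161, 60, 33 and 39 in WT 1, 2, 3 and 5. Of the 189 other bright probes of the genes with a lowered probe, 10 were also over 8-fold lower and the median deviation was -0.19.

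The brightest 10% of genes read 0.44 above their own medians in WT 4 (-0.14 to 0.08 in the other hearts). By list, glycolysis (0.59) and the ribosome (0.50) were above their own medians in WT 4, as was the respiratory chain, and the Z-disc (-0.48) and the endothelial list (-0.44) were below them. Lists of other kinds were as far above their medians there, among them testis (0.92), erythroid cells and platelets (0.84), pancreas (0.74), pericytes (0.59), atrial cardiomyocytes (0.56), kidney (0.53) and T and NK cells (0.51). Thick and thin filament lists stayed within 0.08 in all hearts. The part that RNA quality, amplification or dissection had in the difference of WT 4 was not tested.

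**Figure D4:**
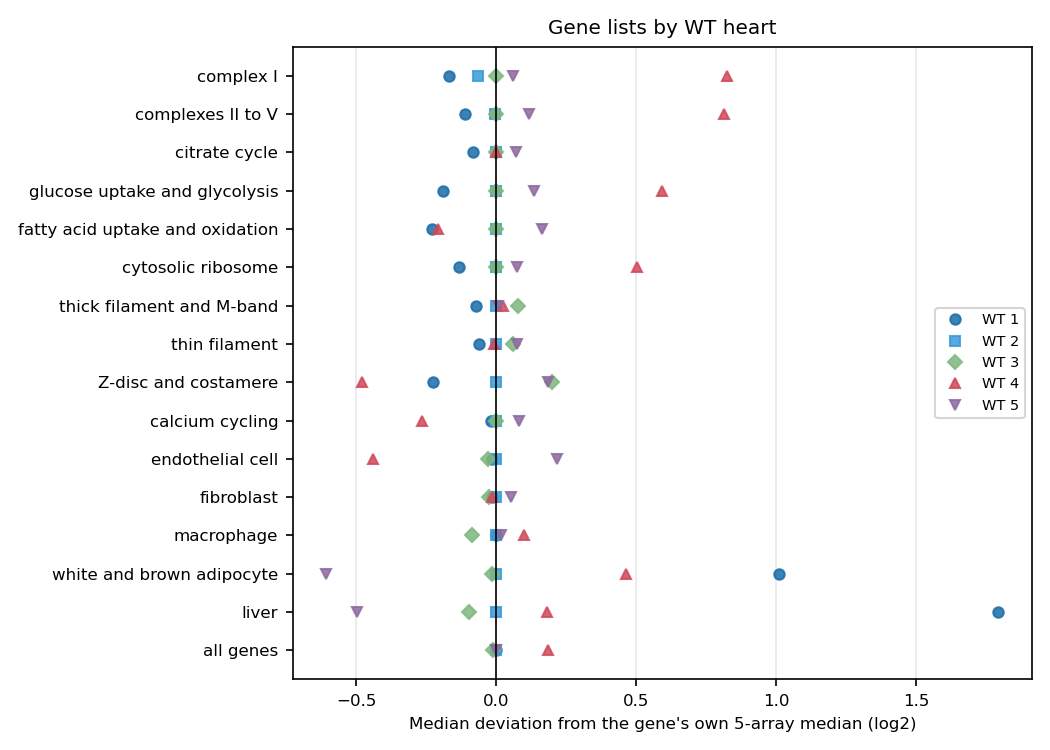
Median over a gene list of the deviation of each gene from its own 5-heart median (horizontal axis, log2 units), with 1 symbol per WT heart. WT 4 (red) is 0.83 up for complex I and 0.44 down for the endothelial list, and WT 1 (dark blue) is 1.79 up for the liver list.

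In the second pattern, genes of glands beside the trachea and of the liver graded over the hearts. Parathyroid hormone (Pth) had the largest SD of all genes above background on 5 of 5 arrays (3.40), and read 4.37, 2.40, 2.22, -2.80 and -3.23 in WT 1 to 5. Thyroglobulin (Tg), the hormone precursor of the thyroid follicle, read 4.80, 3.09, 2.99, -0.06 and -1.35, and a second probe gave 4.49, 2.84, 2.60, -0.38 and -2.13. Calcitonin (Calca), of the thyroid C cell, read 3.40, 1.95, 0.60, -1.88 and -2.61, and the granule protein chromogranin A (Chga) 3.06, 0.90, 1.10, -1.79 and -4.57. In each of these 4 genes WT 1 was highest, WT 2 and 3 lay between, and WT 4 and 5 were lowest.

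The other thyroid genes were dimmer. The factor Nkx2-1 read -0.72, -2.54, -3.84, -7.40 and -7.35, again with WT 1 highest and WT 4 and 5 lowest, while Pax8, Slc5a5, Tshr, Foxe1 and Slc26a4 read between -5.03 and -2.12 in every heart. The summed signal of the 9 measured thyroid genes, on the log2 scale, was 4.96, 3.26, 3.12, 0.70 and -0.42. Tg made up most of that sum, so it mainly repeats Tg. The median deviation of the list was 1.04 in WT 1, 0 in WT 2, 3 and 4, and -0.97 in WT 5. The parathyroid factor Gcm2 did not follow, at 1.03, 0.50, 0.13, 2.62 and -0.19, nor did the calcium-sensing receptor Casr (-4.99 to -3.55).

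Genes of the liver were high in WT 1. Albumin (Alb) read 1.51, -1.28, -1.45, -3.15 and -3.15, the protease inhibitor Serpina1d 3.91, 1.44, 1.20, -2.22 and -2.42, the fibrinogen chain Fgb 3.29, 0.75, -0.30, -0.61 and -3.26, and the fatty acid carrier Fabp1 2.24, -0.48, -1.09, -3.64 and -3.92. The major urinary proteins, liver pheromone carriers that share sequence, were highest in WT 1 and then in WT 2 and 3 for all 6 genes, with Mup1 at 4.49, 1.81, 1.48, -1.41 and -1.52, and summed levels of 6.18, 3.48, 2.99, 1.10 and 0.24 over them. The median gene of the liver list was 1.79 above its own median in WT 1 and within -0.50 to 0.18 in the others. The retinol carrier Ttr (-3.36 to -5.85) and Cyp2e1 (-5.06 to -7.16) were near the level of dim probes in every heart.

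Without WT 4 the SDs were 3.28 for Chga, 3.26 for Pth and 2.63 for Tg. Of the 15 most variable genes 10 were shared without WT 4, with the same probes and genes kept. Of the 100 most variable 25 were shared. There the probes and the background filter were set anew on the remaining hearts, so the 2 counts are not alike. In RORasg/sg 1 to 4, Tg read 3.26, 2.47, -1.38 and -0.74 and Alb -4.13, -2.48, -2.96 and -2.27. The adipocyte list was also above its own median in WT 1, by 1.01, with the fat-cell protease adipsin (Cfd) at 0.92, -1.50, -1.54, -0.48 and -3.18. In WT 1 the median deviation was -0.02 for ventricular cardiomyocyte genes and -0.01 for endothelial genes. Lists of other kinds were also above their medians in WT 1. Among them were thymus (0.66), neutrophils and mast cells (0.61), fast skeletal muscle (0.48) and epicardial or mesothelial cells (0.38). Below them were, among others, fatty acid use (-0.23) and the Z-disc (-0.22). All genes were also cut into 10 groups by brightness, with group 1 the dimmest. The deviation in WT 1 was 0.05, 0.19 and 0.14 in groups 1, 2 and 3, and -0.14 in group 10. Whether adjoining tissue, blood or the handling of the arrays brought the gland, liver and adipocyte transcripts was not tested. The thyroid, parathyroid and urinary protein lists were chosen after the data were examined.

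**Figure D5:**
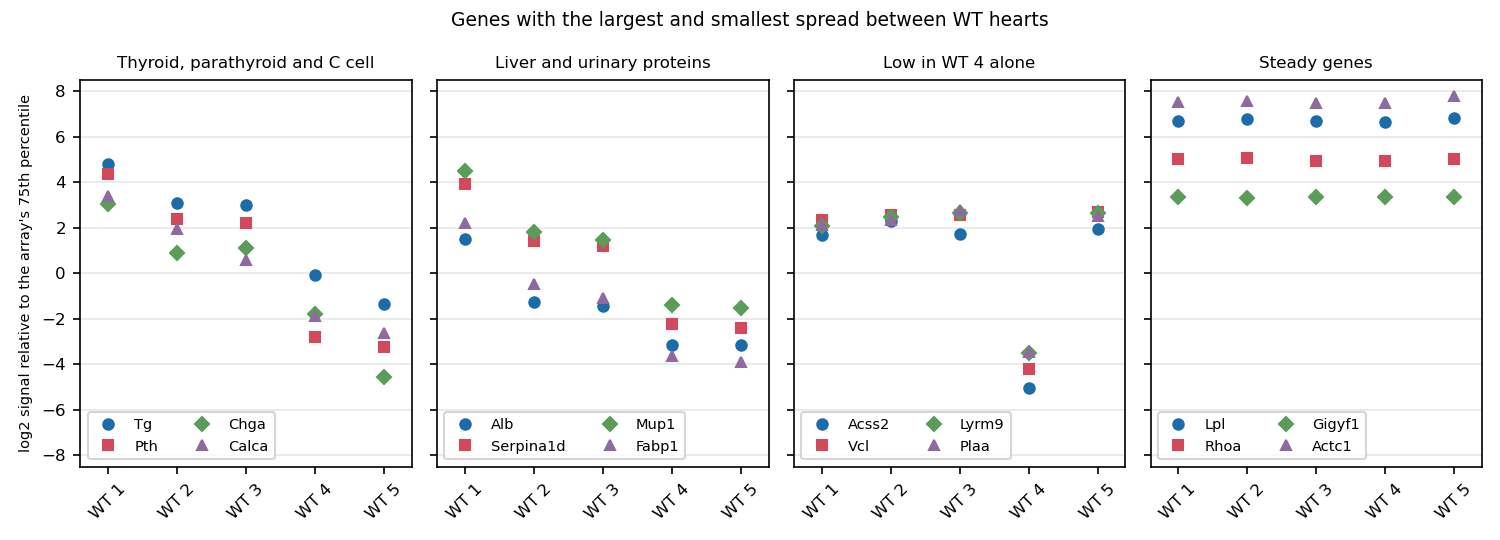
Levels of 16 genes in each of the 5 WT hearts (vertical axis, log2 signal relative to the array's 75th percentile; the horizontal axis names the hearts, which have no order). Pth, Tg, Alb and Mup1 are highest in WT 1 and lowest in WT 4 and 5, Acss2 and Vcl are low in WT 4 alone, and Lpl and Gigyf1 are level in all 5.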

How the data were processed

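The deposited scanner files hold 1-colour signal intensity per spot, made by the authors with Agilent Feature Extraction 12.0.0.7 (design 014868, grid build mm9), per the file headers. The deposited value table equals the processed intensity (largest relative difference 0). From the processed intensity, log2 was taken and each array's 75th percentile subtracted. Control spots and 411 outlier-flagged spots on the WT arrays were left out, spots of a probe were averaged, and accessions were matched to symbols. The probe with the highest WT mean stood for its gene.

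Members and gene lists were chosen with earlier results of these data known, and the thyroid, parathyroid and urinary protein lists after the data were examined. Named genes were the 40 brightest, all paralog family members, up to 4 of each list, the 15 most variable with and without WT 4, and the 10 steadiest of the 2000 brightest. The dimmest members of lists and other genes named beyond this rule were chosen after their values were seen. No groups were tested.

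Alternatives were other scalings, normexp background (limma 3.58.1, offset 50, on the median signal), other probe choices, filters and leaving out each heart. On simulated data of 19096 genes, 94% of the 50 brightest were recovered. The simulation gave every gene the same noise, smaller than the median SD of 0.51 in the hearts. Its dimmer probes lay at a fixed distance below the brighter ones. It therefore checks the code, and cannot say how well the order of brightness holds in the hearts. Python 3.11.15, pandas 2.3.3, numpy 2.4.6 and R 4.3.3 were used. Protein sequences were not analysed here, and some genes and 3 paralog families are not reported here.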

Additional observations from a re-analysis of the deposited data

Results flagged for a closer look

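A sample was singled out where its gap to the nearest other heart took up most of the range of the 5 hearts, by Dixon's 95% limit, which chance passes in about 1 in 20 groups. Of 211 of the named genes, each with 5 values, 45 had such a heart, and in 42 of them it was WT 4. Some of these genes were named for their spread or after their values were seen, so this count cannot be set against the chance rate. The causes were not tested.

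Energy metabolism and mitochondria genes that stood high in WT 4 were Mdh2 at 8.91 (others 8.13 to 8.19), Cs at 7.13 (others 5.44 to 5.85), Atp5c1 at 6.70 (others 5.51 to 5.78) and Atp5e at 8.28 (others 6.94 to 7.12). Also high there were Cox7c at 4.52 (others 1.84 to 2.14), Cox8b at 7.53 (others 6.19 to 6.44), Eno3 at 7.21 (others 5.98 to 6.22) and Hk1 at 6.12 (others 4.75 to 5.03). The list went on with Pfkp at 4.24 (others 2.33 to 2.77), Slc2a4 at 7.16 (others 5.81 to 6.03) and Acads at -3.56 (others -6.45 to -5.64).

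Contraction and the membrane genes that stood high in WT 4 were Tnnc1 at 6.64 (others 5.63 to 5.76), Tcap at 7.35 (others 6.54 to 6.76), Mybpc2 at 4.35 (others 1.45 to 1.75) and Myh8 at 6.81 (others 5.67 to 5.70). Also high there were Myl6 at 7.28 (others 6.12 to 6.41), Acta2 at 5.70 (others 4.46 to 4.75) and Actn4 at 4.98 (others 3.36 to 3.73).

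Genes of other kinds that stood high in WT 4 were Cd163 at 4.23 (others 2.39 to 2.90), Fabp4 at 7.77 (others 6.60 to 6.80), Fth1 at 7.06 (others 5.27 to 5.70) and Hjv at 1.88 (others -2.42 to -1.38). Beside them were Nkx2-5 at 4.93 (others 2.88 to 3.39), Rxra at 5.52 (others 4.05 to 4.37), Sparc at 5.14 (others 3.99 to 4.21) and Tcf21 at 0.26 (others -3.68 to -3.49).

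WT 4 stood low for Acss2 at -5.02 (others 1.68 to 2.29), Ccng1 at 6.33 (others 7.10 to 7.23), Cpt1a at -0.99 (others 1.81 to 2.41) and Kcnj2 at -4.90 (others -2.25 to -1.34). In the same heart the low values were those of Kdm5d at -0.021 (others 0.53 to 0.75), Lyrm9 at -3.49 (others 2.10 to 2.67), Mfap5 at -7.52 (others -2.27 to -1.13) and Myh6 at 4.62 (others 5.69 to 6.03). Lower than in the other hearts were Nebl at 1.53 (others 2.67 to 2.96), Nr1d1 at 1.81 (others 2.94 to 3.16), Plaa at -3.44 (others 2.14 to 2.79) and Pvalb at -7.68 (others -4.82 to -4.10). To these came Rgs5 at 0.67 (others 3.56 to 3.81), Rora at 1.56 (others 3.31 to 3.40), Sdha at 1.40 (others 4.03 to 4.52) and Vcl at -4.20 (others 2.34 to 2.68). Each value is that of 1 probe and need not hold for the gene. The other Myh6 probe, given above, was level in WT 4, and other probes of Acss2 and Vcl were nearer to the other hearts.

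Col3a1 was singled out in WT 3, at 3.53 against 4.02 to 4.13 in the other hearts. Sod1 was singled out in WT 5, at 7.58 against 7.32 to 7.36 in the other hearts. Tnni2 was singled out in WT 1, at 2.22 against 1.49 to 1.70 in the other hearts.

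Of 39 gaps between paralogs with 5 values, 11 had such a heart, WT 4 in 10 of them. In WT 4 the gaps were Myh6 minus Myh8 at -2.20 (others 0.0091 to 0.36), Myl3 minus Myl6 at -0.73 (others 0.33 to 0.55), Actc1 minus Acta2 at 1.79 (others 2.85 to 3.07) and Tnnt2 minus Tnnt1 at 6.55 (others 5.18 to 5.56). Further gaps there were Tpm1 minus Tpm4 at 2.24 (others 4.29 to 5.01), Mybpc3 minus Mybpc2 at 3.82 (others 5.85 to 6.05), Actn2 minus Actn4 at -3.38 (others -1.14 to -0.40) and Gja1 minus Gjc1 at -0.17 (others 0.21 to 0.35). The last were Pgam2 minus Pgam1 at 3.34 (others 1.04 to 1.37) and Cpt1b minus Cpt1a at 8.05 (others 4.59 to 4.96). The gap of Tnni3 minus Tnni2 was singled out in WT 1, at 4.49 against 5.42 to 5.48. Several of these gaps use genes singled out above, among them Myh6, Myh8, Mybpc2, Actn4 and Cpt1a, and in part repeat them. For Myh6 minus Myh8, the other Myh6 probe, given above, was level in WT 4. The other Myh8 probe did not pass the background flag.

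Of 13 median deviations of gene lists, 3 were singled out, all in WT 4. The value for complex I was 0.83, against -0.17 to 0.061 in the other hearts. The value for complexes II to V was 0.82, against -0.11 to 0.12 in the other hearts. The value for all genes was 0.19, against -0.0098 to 0 in the other hearts.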

How the results depend on the processing

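16 alternatives were tried. No paired analysis was possible because the 5 hearts are 1 group and no groups are compared. Leaving out 1 heart in turn gave 16416 to 16707 genes well above background in all hearts, and the other settings gave 14843 to 23993. The 23993 also counts accessions without a symbol, so it exceeds the 19096 genes with a symbol. Of the 50 brightest genes 31 were shared when the dimmest probe stood for each gene, and 46 to 48 when a heart was left out. Of the 100 most variable genes 56 were shared under normexp background, 66 with the mean of all probes, 57 with the dimmest probe, and 25 to 93 when a heart was left out, the 25 without WT 4.

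The median percentile of the ventricular list was 99.1 with the mean of all probes (99.0705) or the dimmest (99.115), 99.6 with genes named by accession, and 99.293 to 99.4109 with a heart left out. That of complex I was 98.9, 98.95 and 99.02 under those settings (98.5521 to 98.6149 with a heart left out). That of complexes II to V was 99.3467 after quantile normalization, 99.4423 with the mean of all probes, 99.4083 with the dimmest, 99.4804 with accessions, 99.2355 with genes above background on 3 or more arrays, 99.3611 with the mean of the arrays, and 99.2721 to 99.3716 with a heart left out. That of the fatty acid list was 97.8399 to 98.0467 with a heart left out.

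Of 640 paralog gaps, 15 turned direction, in 7 families. With the mean of all probes they were essential myosin light chain -1.05, tropomyosin -1.01, natriuretic peptide -1.38 and uncoupling protein 0.457. With the dimmest probe they were essential light chain -2.74, tropomyosin -10.9, L-type calcium channel 2.18, natriuretic peptide -3.79 and uncoupling protein 0.457. The myosin heavy chain gap was -0.00626 after quantile normalization and -0.299 with the mean of the arrays. The PPAR gap was -0.0963 with the array's median, -0.00784 without scaling, -0.0979 with the mean of the arrays and -0.0396 (without WT 1) to 0.158 (without WT 2) with a heart left out. The causes were not tested, beyond the change of probe itself. Chosen after seeing the data, leaving out WT 4 kept 10 of the 15 most variable genes, with WT 1 at 1.84 for the liver list, 2.06 for the parathyroid and C cell list and 2.83 for the major urinary proteins. With 5 arrays and dim probes near the negative controls, small differences cannot be read.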
